A study of Mus musculus with 16 samples.

Results

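The genes examined here are 8 genes of alternative macrophage activation and of the receptor pathway that drives it: the surface lectins Mrc1, Clec10a and Mgl2, the secreted proteins Chil3 and Retnla, the receptor chains Il4ra and Il13ra1, and the transcription factor Stat6. They were chosen by name from 55604 genes listed in the counts, and all 8 were among the 16861 genes kept for testing, which reached 10 counts in 4 or more libraries. RNA came from tumor-associated macrophages (TAMs) of female C57BL/6 mice that were inoculated in the peritoneal cavity at 6 to 8 weeks of age with ID8, a cell line of mouse ovarian surface epithelium that grows as ascites and peritoneal nodules. All libraries are thus from tumor-bearing animals, and macrophages of mice without tumor were not analysed here. At 6 to 7 weeks after inoculation the peritoneal cells of these mice were taken, Tim-4+ TAMs were captured with an antibody to Tim-4, and Tim-4- TAMs were then enriched from the remaining cells with beads against F4/80. Each subset gave 4 libraries, in pairs numbered 793, 784, 783 and 779 (n = 4 per subset). The labels do not say whether a number is 1 mouse or a pool, and the p-values measure only the spread between these pairs.

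In alternative activation, interleukin-4 or interleukin-13 binds a receptor at the macrophage surface, Janus kinases phosphorylate STAT6, and STAT6 enters the nucleus and induces a set of target genes. Il4ra encodes the chain that both receptor types share. It pairs with the common gamma chain, encoded by Il2rg, in the type I receptor for interleukin-4, or with the Il13ra1 chain in the type II receptor for interleukin-4 and interleukin-13. Among the targets, Mrc1 encodes the mannose receptor CD206, Clec10a and Mgl2 encode galactose-type lectins (CD301a and CD301b), Chil3 encodes the chitinase-like protein Ym1, and Retnla encodes the resistin-like protein RELMa, also called Fizz1. In the mouse peritoneum, Tim-4 marks the long-lived resident macrophages, whereas cells recruited from monocytes lack it at first.

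The members were located in GENCODE M21 on GRCm38 as protein-coding genes. Mrc1 lies at chr2:14229392-14332057, Chil3 at chr3:106147554-106167564 on the minus strand, Il4ra at chr7:125552120-125579474, Stat6 at chr10:127642986-127660957, Retnla at chr16:48842551-48844461 and Il13ra1 at chrX:36112110-36171259. The lectin genes Mgl2 (chr11:70130329-70137550) and Clec10a (chr11:70156197-70170834) are neighbors on the same strand. STAT proteins bind a TTC and a GAA triplet held a few bases apart, and STAT6 is known to accept a gap of 4 bases. The triplet TTC followed after any 4 bases, or after any 3, by GAA was therefore searched (both letter patterns read the same on the other strand and cannot share both triplets) in RefSeq promoter windows of GRCm38.p6, from 250 bases before to 50 bases after each start. Windows were at hand for 7 of the 8 members, all but Clec10a. The gap of 4 occurred in 1 of the 7 windows, that of Retnla, and in 6.95% of 32851 windows of all genes. The gap of 3 occurred in 1 of the 7, that of Chil3, and in 8.30% of all windows. The gap of 4 also occurred in windows of other alternative activation genes (a list counted below) that did not fall as Retnla did. Of these, Cd36 was called higher in Tim-4+ TAMs (log2 fold change 0.69). Clec7a (0.43) and Il1rn (-0.03) were not called, and Ccl17 and Pdcd1lg2 were not tested. A link between these letters and the differences between the subsets was not tested. The upstream stretches of Retnla and Chil3 that hold the matches are shown. The matches are in capitals, the sequences read 5′ to 3′ along the gene, and each ends 61 bases before the RefSeq start.
Retnla, chr16:48842359-48842548, plus strand: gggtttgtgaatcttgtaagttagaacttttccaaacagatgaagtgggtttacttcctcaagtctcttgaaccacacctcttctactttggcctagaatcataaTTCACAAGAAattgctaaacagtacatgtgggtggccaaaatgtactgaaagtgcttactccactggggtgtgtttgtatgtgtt
Chil3, chr3:106167625-106167814, minus strand: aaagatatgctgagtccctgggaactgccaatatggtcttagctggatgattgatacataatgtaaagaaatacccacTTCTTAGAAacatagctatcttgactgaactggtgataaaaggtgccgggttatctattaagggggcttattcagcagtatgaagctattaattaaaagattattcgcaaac
The Retnla match spans 145 to 136 bases before the start, and the Chil3 match 172 to 164 bases before it. No binding was measured in these samples, and such letters are a description, not a binding site.

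The sort and the depth of the libraries bear on every value. Tim-4+ libraries held 53527928 to 57768202 counts and Tim-4- libraries 55618306 to 69594245. Levels are given in CPM (counts scaled to a common library size, with TMM factors). The floor of 3 counts was 0.0431 to 0.056 CPM by total counts alone, without these factors. With the factors it would be higher in Tim-4+ libraries (factors 0.833 to 0.948) and lower in Tim-4- libraries (1.05 to 1.18). This floor covers counting error only. Timd4, which encodes Tim-4, was at 524 to 1740 CPM in Tim-4+ and 1.96 to 84.9 CPM in Tim-4- TAMs, with the highest Tim-4- level in pair 793. Macrophage markers were present in every library, with a summed level over 10 genes of 45800 to 58200 CPM in Tim-4+ and 21900 to 35300 CPM in Tim-4- TAMs, and 7 of the 10 rose. All 9 of 9 resident peritoneal macrophage markers rose in Tim-4+ TAMs, and 9 of 10 monocyte-derived markers fell. The resident markers include Timd4, whose rise was set by the sort. Of all genes tested, 8.97% were called higher and 8.43% lower in Tim-4+ TAMs. Markers of tumor and mesothelial cells fell as well, 10 of 11 (4 when every gene with a count was tested, and 1 without the block or without pair 784), from a summed 459 to 2200 CPM in Tim-4- to 114 to 412 CPM in Tim-4+ TAMs. In bulk RNA, a change in the share of cells of a type cannot be told apart from a change in RNA per cell.

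The 3 members that differed between the subsets were Mrc1, Chil3 and Retnla, and each fell in Tim-4+ TAMs relative to Tim-4- TAMs of the same pair. Of the 8, 0 rose, also in DESeq2's test, and Stat6 alone was higher at an unadjusted p under 0.05. All 3 were lower in 4 of 4 pairs, as were 20.2% of all genes tested. Of all 16861 genes tested with edgeR's quasi-likelihood test and the pair number as a block, 17.4% were called at an adjusted p under 0.05, 8.97% higher and 8.43% lower in Tim-4+ TAMs. The scaling used sets the median log2 fold change of all genes at 0.00, and scaling by total counts shifts it to -0.36. The same 3 members were called, in the same direction, under that scaling. All 3 calls were lost when the pair number was left out of the fit, where the adjusted p was 0.398 for Mrc1, 0.0774 for Chil3 and 0.266 for Retnla.

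**Figure D1:**
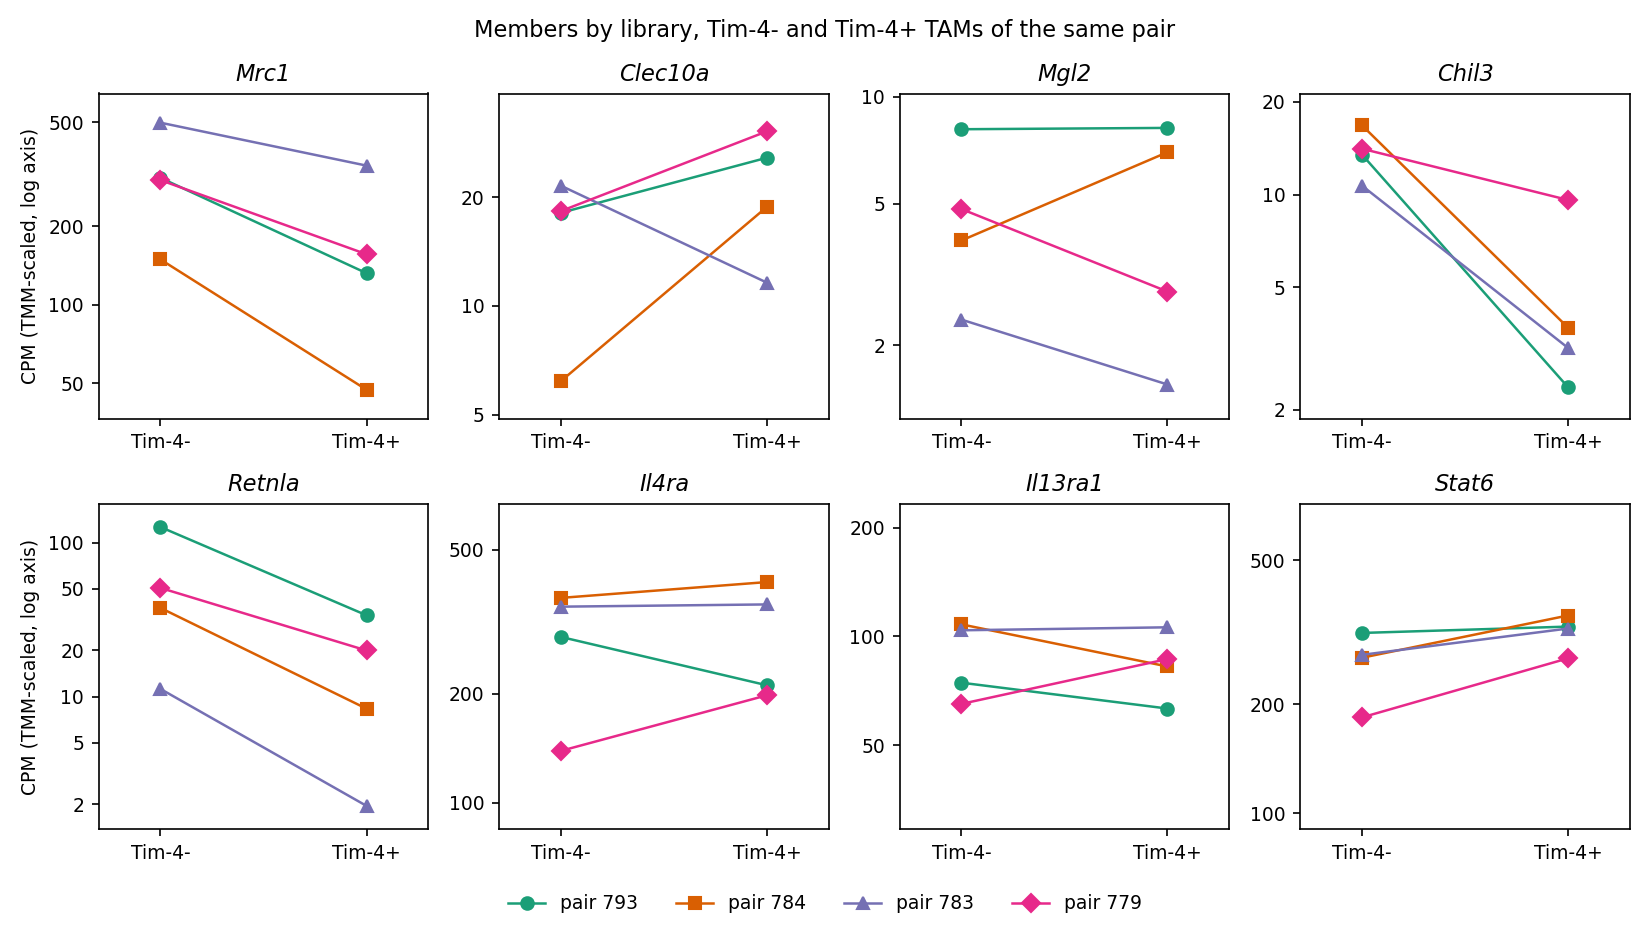
Level of each member in CPM (log axis) in the Tim-4- and the Tim-4+ library of each pair, with a line joining the libraries of a pair. All 4 lines fall for Mrc1, Chil3 and Retnla, whereas for Stat6 all 4 rise slightly and for Clec10a, Mgl2, Il4ra and Il13ra1 the lines go in mixed directions.

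Retnla showed the largest difference of the 8. In the order of pairs 793, 784, 783 and 779, its level was 33.7, 8.34, 1.95 and 19.9 CPM in Tim-4+ TAMs and 126, 37.6, 11.2 and 50.7 CPM in Tim-4- TAMs. Pair 793 was the highest and pair 783 the lowest in both subsets, and the pairs held the same order in both, so that the subsets overlapped although every pair fell. The log2 fold change was -1.97 (SE 0.19, 95% interval -2.41 to -1.53, adjusted p = 0.00395), a level 3.91-fold higher in Tim-4- TAMs, and the single pairs gave -1.90, -2.17, -2.52 and -1.35. Between pairs Retnla varied more than between subsets, 17.3-fold within Tim-4+ and 11.2-fold within Tim-4- TAMs. The call was kept when each pair was left out in turn. The other genes of the resistin family were at or near the floor. Retnlb, an intestinal family member, had no count in any library, Retnlg, a neutrophil family member, was at 0.0127 to 0.285 CPM in Tim-4- TAMs and without a count in Tim-4+ TAMs, and Retn itself reached 0.42 CPM at most. No stretch of 50 bases of the Retnla transcript occurred in a transcript of another gene.

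Chil3 was the only member whose subsets did not overlap, as was the case for 12.8% of all genes tested and, with Tim-4+ TAMs the lower, for 5.92%. Its level was 2.37, 3.70, 3.18 and 9.61 CPM in Tim-4+ TAMs and 13.5, 16.8, 10.7 and 14.1 CPM in Tim-4- TAMs of pairs 793, 784, 783 and 779. The Tim-4- libraries lay close together, within 1.57-fold, while the Tim-4+ library of pair 779 stood above the other 3. The log2 fold change was -1.75 (SE 0.33, 95% interval -2.51 to -0.98, adjusted p = 0.0163). Without pair 784 the adjusted p was 0.0945 (log2 fold change -1.59), and without pair 793 it was 0.055 (log2 fold change -1.49). Chil3 has a near copy, Chil4 (Ym2), and 26.9% of its stretches of 50 bases also occurred in transcripts of Chil4 or a pseudogene. Reads from those stretches could have been set aside as not unique. Chil4 had at most 1 count in any library, and the genes of the active chitinases Chia1 and Chit1 were below 1 CPM in all 8 libraries.

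Mrc1 was 2.13-fold higher in Tim-4- than in Tim-4+ TAMs in the fit. Its level was 132, 47.2, 341 and 156 CPM in Tim-4+ TAMs and 306, 149, 498 and 300 CPM in Tim-4- TAMs of pairs 793, 784, 783 and 779. Pair 783 was the highest and pair 784 the lowest in both subsets, an order unlike that of Retnla, for which pair 783 was the lowest. The log2 fold change was -1.09 (SE 0.18, 95% interval -1.51 to -0.66, adjusted p = 0.0115), and the pairs gave -1.21, -1.66, -0.55 and -0.94. Without pair 784, which had the largest difference, the log2 fold change was -0.90 and the adjusted p 0.063. These values are RNA. For CD206, the protein that Mrc1 encodes, the study reported levels that were comparable between the subsets. The related endocytic receptor Mrc2, found mainly on fibroblasts, was at 0.441 to 1.3 CPM in Tim-4+ and 0.449 to 3.01 CPM in Tim-4- TAMs. The fit gave Mrc2 a log2 fold change of -1.26 (adjusted p = 0.0743), and it was called lower under scaling by total counts (-1.61, adjusted p = 0.0318) and in DESeq2's test (-1.25, adjusted p = 0.0202). No stretch of 50 bases of the Mrc1 transcripts was shared with another gene, and the microRNA gene Mir511 inside it had 1 count in all.

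The falls of these 3 genes came with differences in markers of other cells whose part in them was not tested. The summed mast cell and basophil markers (7 genes) were at 0.56 to 1.58 CPM in Tim-4+ and 0.433 to 27.1 CPM in Tim-4- TAMs. Of these, 1 of the 4 tested, the chymase gene Mcpt4, fell (log2 fold change -3.24). Cpa3, Cma1 and Tpsb2 did not pass the test, at log2 fold changes of -3.12, -3.41 and -3.09 (adjusted p = 0.0793, 0.0627 and 0.0887). The 11 neutrophil markers, among them Ly6g, Camp, Ltf and Ngp at under 1 CPM everywhere, summed to 252 to 370 CPM in Tim-4+ and 87.2 to 191 CPM in Tim-4- TAMs, nearly all from Csf3r, the 1 of 3 tested that rose. Eosinophil markers were at or near 0, with Epx and Prg2 under 1 CPM in every library and Prg3 without a count. The 10 dendritic cell markers summed to 16.6 to 40.9 CPM in Tim-4+ and 29.1 to 75.8 CPM in Tim-4- TAMs, with 1 higher and 2 lower of 9 tested. Cd209a rose, whereas Zbtb46 and Kit fell. Kit, which is not particular to dendritic cells, went from a mean of 30.3 CPM in Tim-4- to 7.92 CPM in Tim-4+ TAMs and weighed heavily in the sum. Flt3, Clec9a, Xcr1, Ccr7, Itgae and Dpp4 had log2 fold changes of 0.12 to 0.68, all above 0, and none passed the test. The median log2 fold change of the 9 was 0.54, against the direction of the sum. Fibroblast markers summed to 19.5 to 90.3 CPM against 49.9 to 173 CPM, with 1 of 5 tested lower. T and NK cell markers summed to 0.665 to 2.56 CPM against 4.27 to 10.5 CPM, with 1 of 2 tested lower. The lower gene was Cd4, at a mean of 0.813 CPM in Tim-4+ and 4.80 CPM in Tim-4- TAMs. Cd3d, Cd3e, Cd3g, Cd8a, Gzma, Klrb1c and Ncr1 were under 1 CPM in every library. B cell markers summed to 9.32 to 16.5 CPM against 16.3 to 37.5 CPM, with 2 of 6 lower.

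The galactose-type lectins did not pass the test. Clec10a was at 25.7, 18.8, 11.6 and 30.4 CPM in Tim-4+ TAMs and 18.1, 6.2, 21.5 and 18.3 CPM in Tim-4- TAMs of pairs 793, 784, 783 and 779. It was higher in Tim-4+ TAMs in 3 of 4 pairs and lower in pair 783 (pair log2 ratio -0.89). The fitted log2 fold change was 0.49 (SE 0.38, 95% interval -0.42 to 1.40, adjusted p = 0.414). The value rested on pairs that went opposite ways. Without pair 783 the log2 fold change was 0.93 and the adjusted p 0.0105, past the threshold, and without pair 784, whose pair log2 ratio of 1.6 was the largest, the log2 fold change was 0.12 and the adjusted p 0.854. Mgl2, from the neighboring gene, was at 8.17, 6.98, 1.55 and 2.83 CPM in Tim-4+ and 8.10, 3.94, 2.36 and 4.83 CPM in Tim-4- TAMs, nearly equal in pair 793, higher in pair 784 and lower in pairs 783 and 779. Its log2 fold change was -0.13 (SE 0.29, 95% interval -0.81 to 0.55, adjusted p = 0.801), and its sign turned without pair 783 or pair 779 and without the block. The transcripts of both genes are similar enough that 270 stretches of 50 bases occur in both, out of 3181 for Clec10a and 2205 for Mgl2, so their reads may be split or set aside. The liver lectins of the same family, Asgr1 and Asgr2, did not exceed 0.255 CPM.

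The receptor chains and STAT6 did not pass the test either, and the intervals were narrower than for the target genes. Il4ra was at 211, 407, 353 and 198 CPM in Tim-4+ TAMs and 287, 368, 348 and 139 CPM in Tim-4- TAMs of pairs 793, 784, 783 and 779. Its levels followed the pair in the same order in both subsets, with pair 784 highest and pair 779 lowest. The log2 fold change was 0.06 (SE 0.16, 95% interval -0.32 to 0.43, adjusted p = 0.838), and it turned to -0.3 under scaling by total counts and to -0.09 without pair 779. An antisense gene overlaps Il4ra but had 12 counts in all. Il13ra1, the type II chain, was at 63.2, 82.6, 106 and 86.6 CPM in Tim-4+ and 74.5, 108, 104 and 65.1 CPM in Tim-4- TAMs. It was higher in Tim-4+ TAMs in 2 pairs and lower in the other 2, with a log2 fold change of -0.05 (SE 0.14, 95% interval -0.38 to 0.28, adjusted p = 0.844).

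Stat6 was at 328, 352, 324 and 268 CPM in Tim-4+ TAMs and 315, 269, 274 and 184 CPM in Tim-4- TAMs of pairs 793, 784, 783 and 779. It was higher in Tim-4+ TAMs in 4 of 4 pairs, and 42.6% of all genes tested had 1 direction in all 4 pairs. The log2 fold change of 0.31 (SE 0.12, 95% interval 0.02 to 0.60) had an unadjusted p of 0.0389 and an adjusted p of 0.126, and turned to -0.05 under scaling by total counts. The 3′ end of Stat6 meets that of Nab2 on the other strand, which held 22278 counts over all libraries, and whether the counting used strand is not given in the sources used here.

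**Figure D2:**
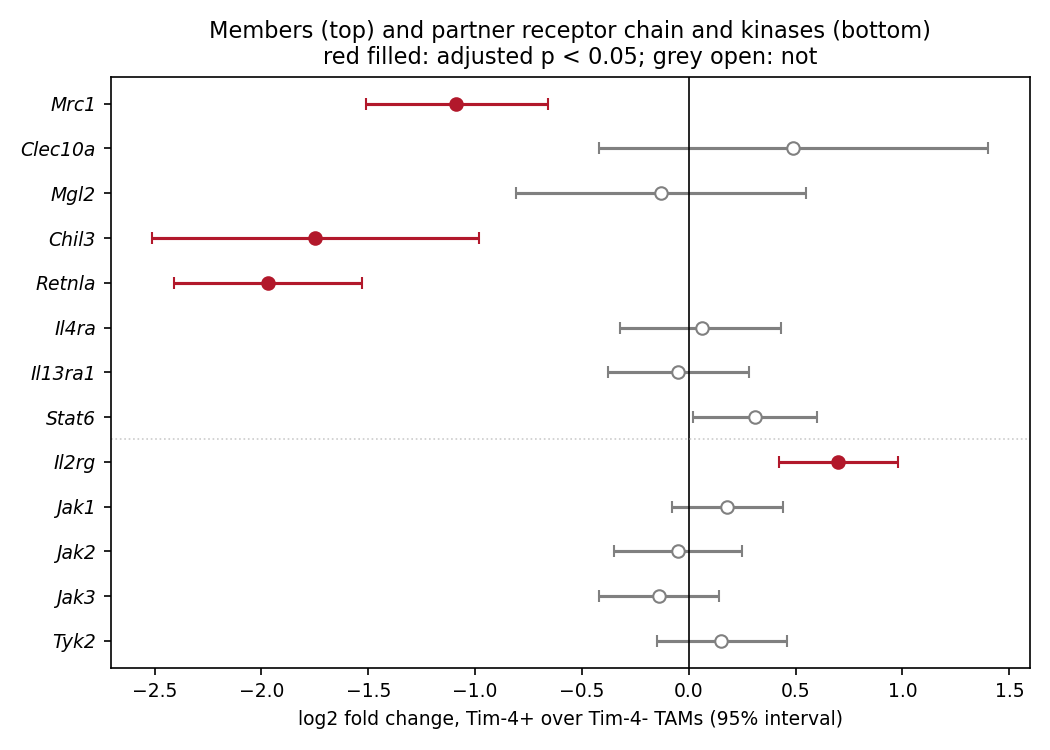
Log2 fold change of each member and of the partner chain Il2rg and the Janus kinases, Tim-4+ over Tim-4- TAMs, with 95% intervals from the fit over 4 pairs; filled red points passed an adjusted p of 0.05. Mrc1 (-1.09), Chil3 (-1.75) and Retnla (-1.97) lie below 0 and Il2rg (0.70) above it, while the intervals of Il4ra, Il13ra1 and the 4 kinases include 0.

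The other parts of the receptor complexes were read from the same fit. Il2rg, which encodes the common gamma chain shared with several other interleukin receptors, rose in Tim-4+ TAMs. It was at 149, 258, 99.3 and 158 CPM in Tim-4+ and 92.6, 135, 76.6 and 90.1 CPM in Tim-4- TAMs of pairs 793, 784, 783 and 779, higher in all 4 pairs (log2 fold change 0.70, SE 0.12, adjusted p = 0.012). Without pair 784 the adjusted p was 0.0707, and without the block it was 0.178. A predicted gene, Gm20489, shares 27.5% of the stretches of 50 bases of Il2rg and had no count in any library, so reads there may have been set aside as ambiguous. The kinases did not pass the test in the TMM-scaled fit. Jak1 had a log2 fold change of 0.18 and Tyk2 of 0.15, both of which turned negative under scaling by total counts (-0.18 and -0.21), and Jak2 of -0.05. Jak3 had a log2 fold change of -0.14 (adjusted p = 0.461), and under scaling by total counts it was called lower, at -0.5 (adjusted p = 0.0176). The decoy receptor gene Il13ra2 had no count in any library.

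The ligands were barely detected in these macrophage libraries. Il13 had no count in any of the 8 libraries, and neither had Il5, Il9 or Il25. Il4 had 10 to 67 counts, at 0.30 to 0.84 CPM in Tim-4+ and 0.15 to 0.853 CPM in Tim-4- TAMs (log2 fold change 0.42, SE 0.51, adjusted p = 0.61). Ligand made by cells outside the sorted fractions was not measured.

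Of the 29 genes of interleukin-4 and interleukin-13 signaling, 27 were tested, 4 rose and 2 fell, a share called of 22.2% beside 17.4% of all genes, and their median log2 fold change was 0.08. This list too was drawn up with earlier results of these data known, and the share is a description. The genes that rose were Il2rg, the phosphatase gene Ptpn6 (SHP-1, which dampens cytokine receptor signaling; 0.63, SE 0.15, adjusted p = 0.0299), and the coactivators Crebbp (0.62, SE 0.13, adjusted p = 0.0181) and Ncoa1 (0.58, SE 0.12, adjusted p = 0.0183). Those that fell were Irs1, an adaptor of the receptor, at a mean of 0.566 CPM in Tim-4+ and 2.68 CPM in Tim-4- TAMs (-2.09, SE 0.58, adjusted p = 0.0465), and Il21r, which encodes a receptor chain that also pairs with the common gamma chain (-0.56, SE 0.13, adjusted p = 0.0247). Scaling by total counts gave 1 higher and 5 lower of the list, and 0 higher and 0 lower remained without the block or without pair 784. Without pair 779, 1 was higher and 0 lower, and without pair 793 0 were lower. On lane 2 alone, or with the symbol-listed lane left out, 1 was lower.

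Levels of different genes were compared per kilobase (kb) of exon. In Tim-4- TAMs the order of the members ran from Retnla (94.1 ± 82.2 CPM per kb, SD, n = 4) through Stat6 (59.1 ± 12.5), Mrc1 (49.2 ± 22.4), Il4ra (47.6 ± 17.3) and Il13ra1 (23.7 ± 5.78) to Chil3 (8.45 ± 1.55), Clec10a (5.53 ± 2.32) and Mgl2 (2.30 ± 1.16). In Tim-4+ TAMs Stat6 was at the top (72.2 ± 8.12 CPM per kb, SD, n = 4), followed by Il4ra (48.7 ± 17.3), Retnla (26.7 ± 23.3), Mrc1 (26.5 ± 19.4), Il13ra1 (22.8 ± 4.69), Clec10a (7.45 ± 2.83), Chil3 (2.89 ± 2.03) and Mgl2 (2.33 ± 1.52). The ranges of mean ± SD of neighbors in this order overlapped, except between Il4ra and Il13ra1 and between Il13ra1 and Chil3 in Tim-4- TAMs and between Il13ra1 and Clec10a in Tim-4+ TAMs. Il2rg was at 41.3 ± 10.6 CPM per kb in Tim-4- and 69.6 ± 27.9 in Tim-4+ TAMs. By its mean, Retnla was at the top in Tim-4- TAMs and close to Mrc1 in Tim-4+ TAMs.

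**Figure D3:**
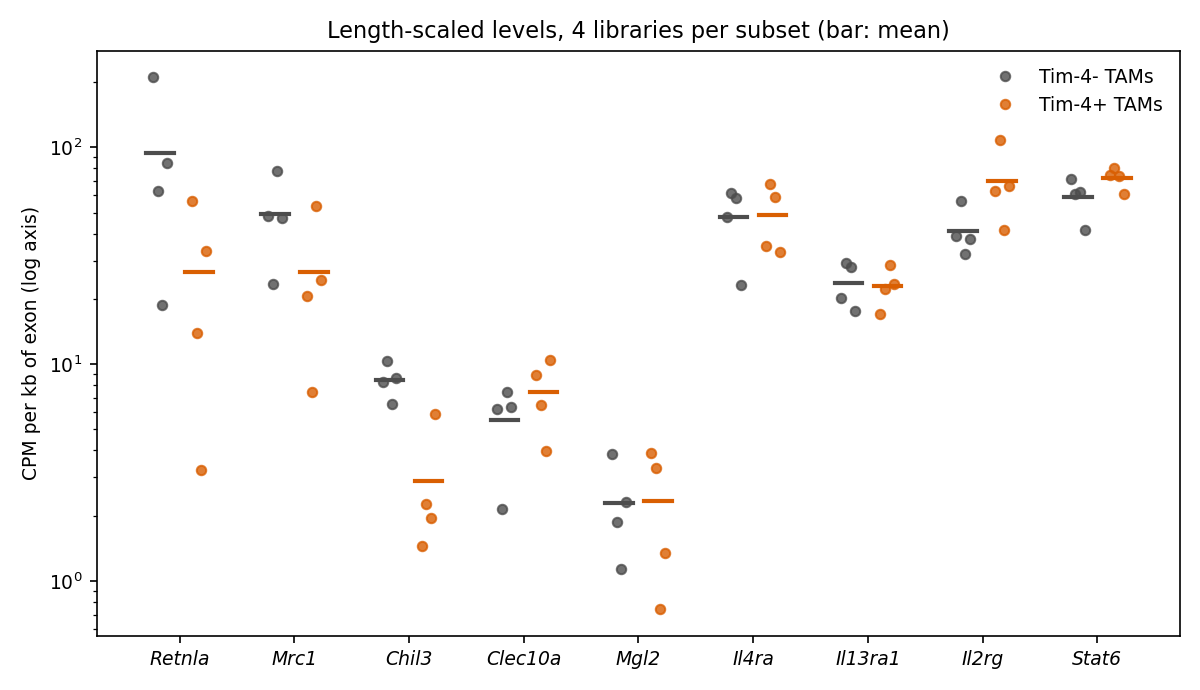
Level per kb of exon (CPM per kb, log axis) of the members and Il2rg in the 4 Tim-4- and the 4 Tim-4+ libraries, with bars at the means. Retnla spans the widest range, with means of 94.1 in Tim-4- and 26.7 in Tim-4+ TAMs, whereas Stat6 and Il13ra1 stay within 1.71-fold in each subset.

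Several members varied together, or against one another, over the libraries within the subsets. With the subset means subtracted, the log2 levels of Il4ra and Stat6 moved together over the 8 libraries (Pearson r = 0.80), as did those of Retnla and Mgl2 (0.80) and of Il4ra and Il13ra1 (0.73), whereas Il13ra1 ran against Retnla and Mgl2 (-0.76 each) and Mrc1 against Mgl2 (-0.66). The other negative values reached -0.57 (Clec10a with Il13ra1), and Mrc1 and Retnla were at -0.40. Libraries of a pair share their source, so these are descriptions over 4 pairs. By the same measure, among 8768 genes at 10 CPM or more, the genes most like each member were Tanc2, Rnf150 and Pot1a for Mrc1 (r = 0.992 to 0.996), Trp53bp2, Slc22a15 and Bzw2 for Retnla (0.973 to 0.984), Cflar, Sp140 and C1ra for Chil3 (0.922 to 0.932), Arsa, Rpl19-ps1 and Morf4l1-ps1 for Clec10a (0.973 to 0.986) and Ube2e1, Lbr and Tiam1 for Mgl2 (0.962 to 0.966). For the pathway genes they were Slc7a2, Sh3bp2 and Prr5l for Il4ra (0.978 to 0.994), Fam208a, Zbtb37 and Samd9l for Il13ra1 (0.941 to 0.978) and Gna15, Fgd3 and Exoc2 for Stat6 (0.988 to 0.991). Of these, the cationic amino acid transporter gene Slc7a2 is itself a gene of alternative activation. All these genes were picked for the highest r among 8768 genes over 8 libraries, and their likeness was not tested.

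The fall of Mrc1, Chil3 and Retnla was set beside a wider list of 44 alternative activation genes, of which 39 were tested. In the whole list 17 rose and 5 fell in Tim-4+ TAMs, with a median log2 fold change of 0.43. The share called was 56.4%, beside 17.4% of all genes (8.97% higher and 8.43% lower). The list was drawn up with earlier results of these data known, so this share describes the list and is not a test of it. Without the 5 members in it, 17 rose and 2 fell of 34 (median 0.55). The genes with the largest rise were Ccl22 (2.2, SE 0.37, adjusted p = 0.0114), which encodes a chemokine for regulatory T cells, and Ccl24 (2.11, SE 0.24, adjusted p = 0.00667), which encodes the eosinophil chemokine eotaxin-2. Alox15, the 12/15-lipoxygenase gene, rose by 2.06 (SE 0.31, adjusted p = 0.00887), from a mean of 1600 to 6300 CPM, and Il10 rose by 2.03 (SE 0.30, adjusted p = 0.0112), all on the log2 scale. Arg1, which encodes the arginase that competes with nitric oxide synthase for arginine, was at 2190, 4980, 5720 and 3290 CPM in Tim-4+ and 945, 1390, 2680 and 794 CPM in Tim-4- TAMs of pairs 793, 784, 783 and 779. Its log2 fold change was 1.55 (SE 0.21, adjusted p = 0.00779), and the call was lost without the block (adjusted p = 0.095) and without pair 784 (adjusted p = 0.0609). Beside the 3 members, the scavenger receptor gene Stab1 (-1.08, SE 0.17, adjusted p = 0.00949) and the vascular endothelial growth factor receptor gene Flt1 (-1.59, SE 0.34, adjusted p = 0.023) fell. The list thus held genes that went in opposite directions. Resident peritoneal macrophages are known to express Alox15 and other genes of the list. The resident markers moved with these genes, 9 of 9 higher, Timd4 as the gene of the sort among them. The part of resident cells in the result was not tested.

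**Figure D4:**
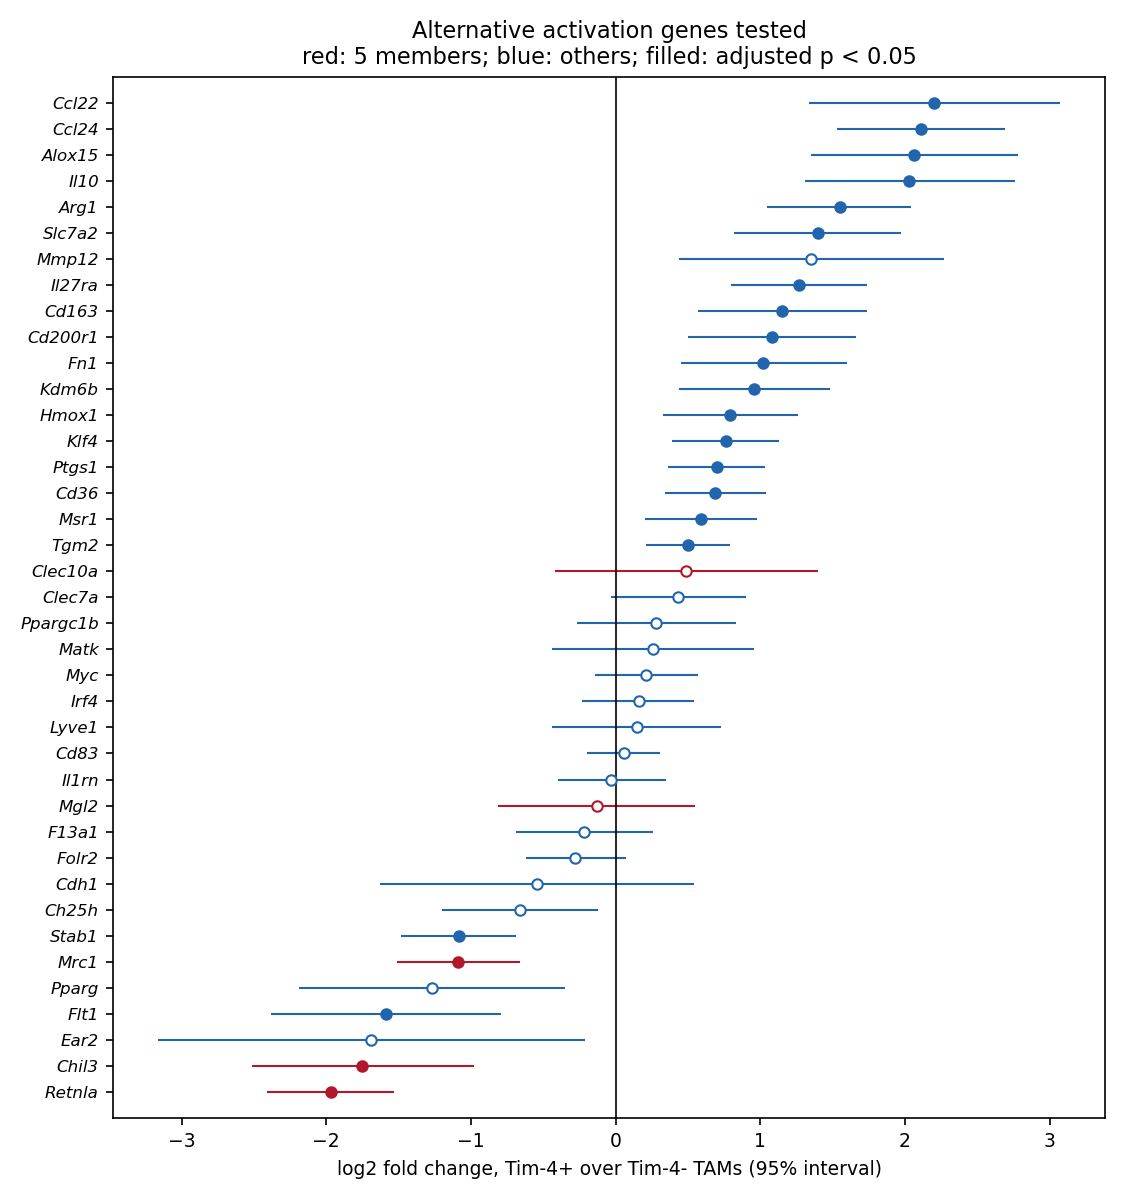
Log2 fold change (Tim-4+ over Tim-4- TAMs, 95% intervals from the fit over 4 pairs) of the 39 alternative activation genes tested, sorted, with the 5 members in red and filled points at an adjusted p under 0.05. Retnla and Chil3 are at the bottom of the list and Ccl22, Ccl24, Alox15 and Il10 at its top, between 2.03 and 2.2.

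Those counts rested on the pairing. Without the block 1 gene of the list rose and 0 fell, and without pair 784 1 rose and 1 fell. Without pair 779, 6 rose, without pair 793 3 fell, and without pair 783 8 fell. Scaling by total counts gave 12 higher and 8 lower, and DESeq2's test 18 higher and 8 lower. A list of 30 classical activation genes, which mark macrophages that respond to interferon-γ and bacterial products, was counted in the same way and with the same limit. Of its 28 genes tested, 8 rose and 2 fell (median log2 fold change 0.44), a share called of 35.7% beside the 17.4% of all genes, with the largest rises in Il6 (2.91, SE 0.29, adjusted p = 0.00613), the cyclooxygenase gene Ptgs2 (2.28, SE 0.39, adjusted p = 0.0155), Il1a (2.10, SE 0.22, adjusted p = 0.00533) and the costimulatory ligand gene Cd80 (1.53, SE 0.16, adjusted p = 0.00395). The chemokine gene Cxcl9, which interferon-γ induces, was among those that fell (-0.88, SE 0.23, adjusted p = 0.0377). Without pair 784 2 of the list rose and 0 fell, without pair 779 5 rose and 1 fell, and without pair 793 or pair 783 0 fell. On lane 2 alone 1 fell, scaling by total counts gave 4 lower, and without the block none was called.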

How the data were processed

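Libraries were stranded and depleted of ribosomal RNA, and 2 lanes of each were sequenced paired-end. Raw counts of reads on each gene, as whole numbers, were deposited by lane without normalization. The submitters' processing notes name FastQC 0.11.3, TopHat2 2.0.13, Cufflinks, Cuffdiff 2.2.1 and GRCm38. The program that counted reads, and its use of strand, are not given in the sources used here. For pair 793, lane 1 of the Tim-4- library names genes by symbol and was joined by row order (96.9% of comparable symbols matched, and all 8 members). In the Tim-4- library of pair 779, reads set aside as not unique were 24.5% of lane 1 and 9.11% of lane 2.

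Lanes were summed, summary lines were left out, and 98.4% of identifiers were found in GENCODE M21. Genes that reached 10 counts in 4 or more libraries were tested with edgeR 4.0.16 in R 4.3.3 (TMM, robust quasi-likelihood test, pair number as block, adjustment by Benjamini-Hochberg across 16861 genes). The standard error was the size of the log2 fold change divided by the square root of F. Pair numbers were taken from the labels, and the deviations of same-numbered libraries from their subset means correlated at 0.471, 0.498, 0.408 and 0.277. A table of the same libraries in the study's supplement carries the pair numbers in reverse order in both subsets. That joins the same libraries into pairs, so the block is the same under either naming. The biological coefficient of variation common to all genes was 0.261 with the block and 0.396 without it. Likeness used log2 CPM with a prior count of 2.

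Alternatives were DESeq2 1.42.0 size factors and its test, total counts, no block, other count filters, lane 2 alone, the symbol-listed lane joined by symbol or left out, and each pair left out. The members and lists were chosen with earlier results of these data known. Named genes were the members, receptor complex genes, near copies, Arg1, Timd4, the 3 most alike genes of each member, and in each list up to 4 called genes in each direction by log2 fold change with a mean of at least 1 CPM. Some genes that this rule names are not reported here.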

Additional observations from a re-analysis of the deposited data

Results flagged for a closer look

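In each subset of 4 libraries, the CPM of the tested genes that the naming rule chose, other than the genes most like each member, was examined for a library far from the other 3 by Dixon's criterion. Of 120 such sets 7 were marked, where chance marks about 1 in 20, and none concerned a member. In Tim-4- TAMs the library of pair 793 was the high one for Crebbp (119 CPM), Il10 (44.1 CPM), Ptgs2 (227 CPM) and Cd209b (1.11 CPM). This library also had the highest Timd4 level of the Tim-4- libraries, 84.9 CPM, and its part in these values was not tested. The library of pair 783 was the high one for Cd163 (248 CPM) and Fcrls (23.7 CPM) in Tim-4+ TAMs and for Fcrls (168 CPM) in Tim-4- TAMs. Cd163 encodes a hemoglobin scavenger receptor, and pair 783 also held the highest Mrc1 level in both subsets.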

How the results depend on the processing

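Direction and side of the threshold were kept by all 8 members under DESeq2 size factors, DESeq2's test with the block, both other count filters, lane 2 alone and both treatments of the symbol-listed lane. Without the replicate block Mrc1 (-0.89), Chil3 (-1.55) and Retnla (-1.82) were no longer called, Mgl2 turned to 0.02, and the count of members lower was 0. Genes called higher numbered 147 and lower 85 without the block, beside 1512 and 1421 with it, and no gene of the signaling and classical lists was called in either direction (0), beside 1 higher and 0 lower alternative activation genes. Scaling by total counts turned Il4ra to -0.3, Stat6 to -0.05, Jak1 to -0.18 and Tyk2 to -0.21. It gave 789 genes higher and 4903 lower, so that 13.9% of called genes were higher beside 51.6%, and 1 higher and 5 lower signaling genes, 8 lower alternative and 4 lower classical activation genes. DESeq2's test called 2328 genes lower, 8 of them in the alternative list. Lane 2 alone left 1 lower signaling and 1 lower classical gene, and leaving out the symbol-listed lane 1 lower signaling gene. The causes of these changes were not tested.

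With each pair left out in turn, genes called higher ranged from 91 to 1608 and lower from 67 to 1975, with the lowest counts without pair 784. Members called higher ranged from 0 to 1 and lower from 1 to 3. Log2 fold changes ranged from -1.27 to -0.90 for Mrc1, from 0.12 to 0.93 for Clec10a, from -0.45 to 0.09 for Mgl2, from -2.14 to -1.49 for Chil3, from -2.18 to -1.81 for Retnla, from -0.09 to 0.23 for Il4ra, from -0.20 to 0.06 for Il13ra1 and from 0.23 to 0.40 for Stat6. Mgl2 turned without pair 783 (0.03) and pair 779 (0.09), Il4ra without pair 779 (-0.09), Il13ra1 without pair 793 (0.02) and pair 784 (0.06), and Jak2 ranged from -0.14 to 0.09, turned without pair 784. Signaling genes called higher ranged from 0 to 4 and lower from 0 to 2, alternative activation genes called higher ranged from 1 to 16 and lower from 1 to 8, classical activation genes called higher ranged from 2 to 8 and lower from 0 to 1. Of 46 called named genes other than members, 7 were still called without pair 784, 29 without pair 779, 36 without pair 793, 44 without pair 783 and 10 without the block. Depth limits Il4, at 10 to 67 counts, more than any member.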

Other observations

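The balance of the partner chains of the receptor was computed after the values of Il2rg and Il13ra1 had been seen. The log2 ratio of Il2rg to Il13ra1, each per kb of exon, in pairs 793, 784, 783 and 779 was 1.88, 2.28, 0.55 and 1.5 for the Tim-4+ libraries, against 0.95, 0.96, 0.19 and 1.11 for the Tim-4- libraries. The ratio was higher in Tim-4+ TAMs in 4 of 4 pairs, by 0.75 ± 0.46 (SD over pairs, n = 4) on the log2 scale. No test is given, since the ratio was chosen with these values known. In every library the type I chain was above the type II chain per kb of exon.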
